A study of Mus musculus with 9 samples.

Results

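The brush border enzymes described here are 9 digestive hydrolases of the apical membrane of the enterocyte, namely the disaccharidase Sis, the peptidases Enpep, Anpep, Dpp4, Mme, Mep1a, Mep1b and Ace, and the phosphatase Alpi. They were taken by symbol from a table of 46095 gene rows, in which all 9 were found, and 8 passed the filter on low counts. RNA was sequenced from intestinal epithelial cells (IECs) that were released from the mouse colon with EDTA after 10 days of AOM/DSS, a colitis-associated tumour model with the mutagen azoxymethane (10 mg/kg at 8 weeks of age) and 1 course of 2% dextran sodium sulphate in the drinking water. The control group was 4 Smad4Vil-KO mice, labelled Smad4-knockout, in which Villin-Cre deletes floxed Smad4. The second group was 5 Smad4Vil-KO;Setd2Vil-KO mice, labelled Smad4-knockout;Setd2-knockout and called double-knockout below, in which Villin-Cre deletes both floxed Smad4 and floxed Setd2, the gene of a histone H3 lysine 36 methyltransferase. All mice therefore lacked epithelial Smad4 and all received AOM/DSS, the strain background was C57BL/6J, and no wild-type or untreated mice were among the 9 libraries. Villin-Cre is active along the epithelium of the small and large intestine and not in stromal or immune cells.

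The brush border is the layer of microvilli on the absorptive cell, and its membrane carries enzymes that finish digestion at the cell surface. Disaccharidases split maltose, sucrose and related sugars, aminopeptidases and dipeptidyl peptidases trim peptides from their ends, endopeptidases such as the meprins cut within them, and the alkaline phosphatase removes phosphate from lipids and lipopolysaccharide. Sis, Anpep, Enpep and Alpi are best known from villus enterocytes of the small intestine, while both meprin genes are also expressed in the mouse colon. CDX, HNF4 and GATA factors are known regulators of such genes.

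The sequence before the start site is shown for Sis and Enpep, the members with the largest fitted rises, and for Alpi, whose libraries divided in the double-knockout group. Each line holds the 250 bases before a RefSeq start site on GRCm38.p6, 5′ to 3′ on the strand of the gene, which is the minus strand for all of them. Capitals mark 6-letter matches, on either strand, to the CDX site CATAAA, the HNF4 core CAAAGT or the GATA site AGATAA.
Sis, chr3:72967864-72968113: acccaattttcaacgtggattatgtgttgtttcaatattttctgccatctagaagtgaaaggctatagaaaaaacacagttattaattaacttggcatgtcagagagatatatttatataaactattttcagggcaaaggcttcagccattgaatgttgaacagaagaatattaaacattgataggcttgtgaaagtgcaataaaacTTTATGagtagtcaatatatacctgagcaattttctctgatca
Enpep, chr3:129332750-129332999: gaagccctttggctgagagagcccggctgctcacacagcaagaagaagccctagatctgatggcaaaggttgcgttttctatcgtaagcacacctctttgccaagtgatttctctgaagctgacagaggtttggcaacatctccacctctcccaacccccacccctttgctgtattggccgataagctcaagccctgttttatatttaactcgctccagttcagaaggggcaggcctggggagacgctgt
Alpi, chr1:87101607-87101856: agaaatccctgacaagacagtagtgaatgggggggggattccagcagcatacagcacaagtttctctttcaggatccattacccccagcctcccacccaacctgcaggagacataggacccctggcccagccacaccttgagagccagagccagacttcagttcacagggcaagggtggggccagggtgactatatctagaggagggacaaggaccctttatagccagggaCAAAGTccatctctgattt
Sis had the CDX letters, as their reverse complement, at 43 to 38 bases before the start. Alpi had the HNF4 core at 19 to 14 bases before the start, and the window of Enpep held none of the 3 sets of letters. Of the other members with a window, Dpp4 had the GATA letters, Mep1a and Ace had the HNF4 core, and Anpep had none. Mme had the HNF4 core in 1 window and none of the letters in its others. RefSeq windows were found for 8 of the 9 members, with 11 windows in all. Over 32851 windows of the same length, 10.8% held CATAAA, 12.6% CAAAGT, 9.99% AGATAA and 28.8% at least 1 of them. A match of 6 letters describes the sequence only.

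Library totals were 12487129 to 17120202 counts, and levels are given as TMM-normalized CPM, the usual scaling of counts to the size of the library. A single count equalled 0.0593 to 0.0793 CPM, and the floor of 3 counts 0.178 to 0.238 CPM. Setd2 was lower in the double-knockout group, with 113 ± 9.44 CPM (SD, n = 4) against 66.0 ± 14.7 CPM (SD, n = 5) and a log2 fold change of -0.77 (edgeR adjusted p = 0.00756). Smad4, deleted in both groups, was at 64.1 ± 19.0 and 70.2 ± 34.3 CPM, and counts over the whole gene do not show the deleted exons. The 8 epithelial markers summed to 12784 to 14736 CPM in Smad4Vil-KO and 12146 to 14375 CPM in double-knockout libraries, with 0 called by edgeR in either direction (2 higher and 0 lower at an unadjusted p under 0.05), beside 6.76% higher and 6.54% lower of all tested genes. Transcripts of 4 Y-linked genes summed to at most 1 count in each Smad4Vil-KO library, to 28 and 0 in double-knockout replicates 3 and 4, and to 4907, 4745 and 3857 in double-knockout replicates 1, 2 and 5. Genotype and high Y-linked counts therefore cannot be told apart in those 3 libraries, and results that differ without them are given beside each member.

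The loss of Setd2 on top of Smad4 went with a higher level of 4 of the 8 tested brush border enzymes, Sis, Enpep, Anpep and Dpp4, at an edgeR adjusted p under 0.05. The call of Anpep was lost in 10 of 19 alternative fits. The rises were unequal, from 1.39-fold for Dpp4 to 53.8-fold for Sis and 57.2-fold for Enpep. None was called lower by edgeR, although Ace was lower at an unadjusted p under 0.05, DESeq2 also called 0 lower and limma-voom with sample quality weights called 1 (Ace). Over all 14593 genes tested, 6.76% were called higher and 6.54% lower. Every double-knockout library lay above every Smad4Vil-KO library for 3 of the 8 (Sis, Enpep and Dpp4) and below for 0, against 8.34% and 8.87% of all tested genes. The median log2 fold change was 0.87 over the 8 members and -0.000588 over all tested genes. In bulk libraries, more cells that express a gene and more RNA per cell cannot be told apart.

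**Figure D1:**
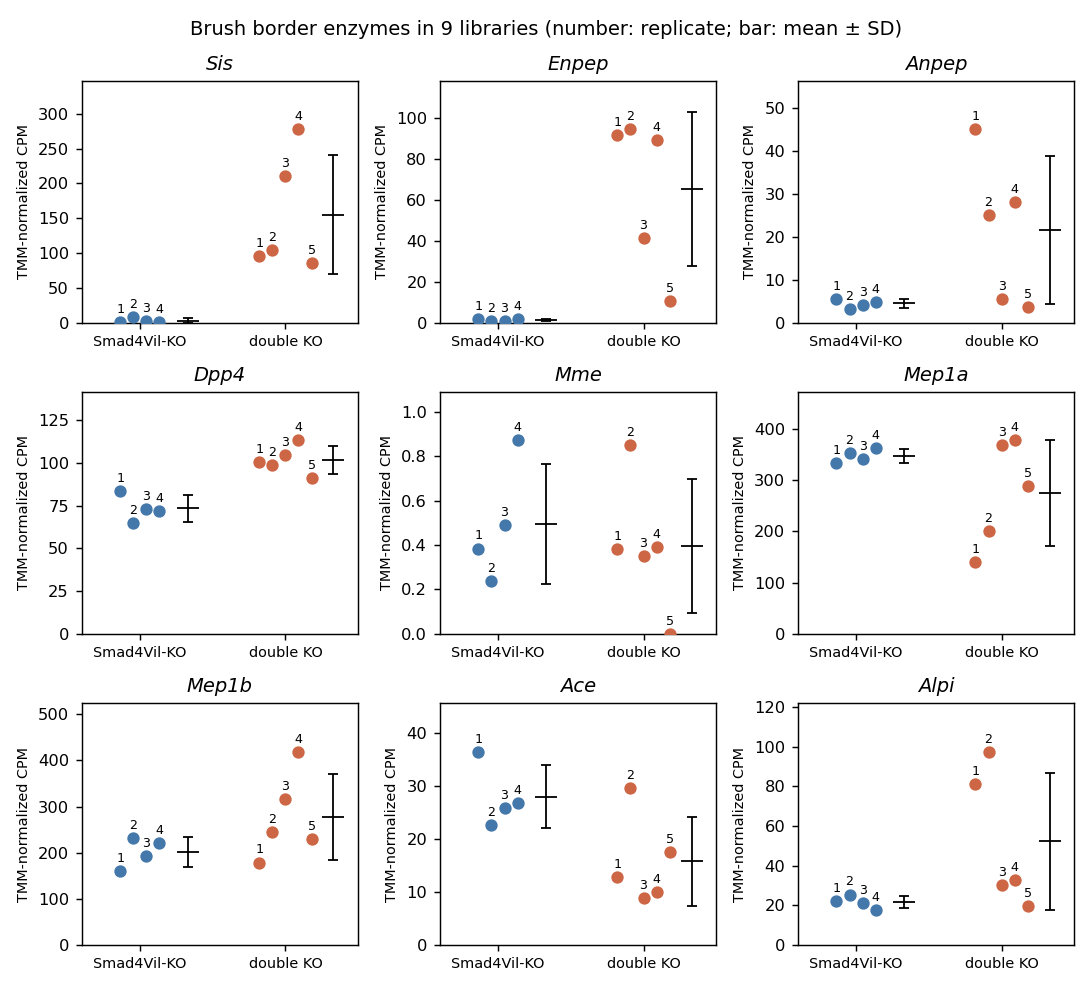
TMM-normalized CPM of each of the 9 enzymes in every library, with Smad4Vil-KO in blue (n = 4), double-knockout in orange (n = 5), the replicate number above each point, and a bar for the mean ± SD. Sis, Enpep and Dpp4 have every double-knockout library above every Smad4Vil-KO library, the double-knockout libraries of Mep1a lie on both sides of the controls, and Anpep, Alpi, Mep1b, Ace and Mme have some within the control range.

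Sis encodes sucrase-isomaltase, the enzyme that splits sucrose and the branch points of starch, and lies on chromosome 3 at 72888557 to 72967863 on the minus strand (GRCm38), with 7464 exonic bases. The Smad4Vil-KO libraries had 0.448, 7.42, 2.51 and 0.713 CPM, which were 7, 125, 41 and 9 counts. The double-knockout libraries had 95.7, 105, 211, 278 and 85.2 CPM. The groups were far apart, and replicates 3 and 4, those with few Y-linked counts, were the highest of their group. The means were 2.77 ± 3.23 and 155 ± 85.4 CPM, and the log2 fold change was 5.75 (SE 0.70, 95% interval 4.20 to 7.30, adjusted p = 0.000985), which ranked 11 of 14593 genes among rises. Control libraries spread 16.5-fold for this gene, the widest spread of any member in that group. The call held in each of the 18 alternatives in which Sis was tested, with log2 fold changes of 5.40 to 6.93.

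Enpep encodes glutamyl aminopeptidase, also called aminopeptidase A, which removes acidic residues from the amino end of peptides, angiotensin II among them. It lies on the same chromosome at 129269175 to 129332720 on the minus strand. The Smad4Vil-KO libraries had 1.86, 0.593, 0.674 and 1.51 CPM, or 29, 10, 11 and 19 counts, and the double-knockout libraries had 91.4, 94.3, 41.3, 89.0 and 10.6 CPM. Replicates 1, 2 and 4 were close to each other, replicate 3 was lower, and replicate 5 was lower again but above every control. The means were 1.16 ± 0.623 and 65.3 ± 37.6 CPM, which gave a fitted log2 fold change of 5.84 (SE 0.70, 95% interval 4.3 to 7.37, adjusted p = 0.000873). Enpep ranked 9 of 14593 genes among rises and kept its call in all 19 alternatives, at 5.60 to 6.20.

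Anpep, aminopeptidase N, removes neutral residues from the amino end of peptides and lies on chromosome 7 at 79821803 to 79861059 on the minus strand. Its Smad4Vil-KO libraries had 5.51, 3.26, 4.17 and 4.83 CPM and its double-knockout libraries 45.0, 25.1, 5.44, 28.1 and 3.72 CPM. Replicates 1, 2 and 4 of the double-knockout group lay far above the controls, while replicates 3 and 5 lay within the control range. The mean of 4.44 ± 0.958 rose to 21.5 ± 17.2 CPM, with a log2 fold change of 2.28 (SE 0.64, 95% interval 0.86 to 3.69, adjusted p = 0.0407). The spread of 12.1-fold among double-knockout libraries was the widest of the 8 members tested. This call was lost in 10 of 19 alternatives. They were the fits without any single Smad4Vil-KO replicate (adjusted p = 0.0858, 0.104, 0.111 and 0.0893 for replicates 1 to 4) and without double-knockout replicate 1, 2 or 4 (0.0742, 0.0658 and 0.0763), limma-voom with quality weights (0.103), the robust dispersion (0.0742) and a term for Y-linked counts (0.147). Over all 19 alternatives the adjusted p ranged from 0.00873 to 0.147 and the log2 fold change from 1.63 to 2.56. Among the libraries with low Y-linked counts alone Anpep kept its call (log2 fold change 1.91, edgeR adjusted p = 0.0243).

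Dpp4 encodes dipeptidyl peptidase 4, which removes dipeptides ending in proline or alanine and inactivates the incretin hormones. It lies on chromosome 2 at 62330073 to 62412231 on the minus strand. Its levels were 83.7, 64.7, 73.3 and 71.7 CPM in Smad4Vil-KO and 101, 98.6, 105, 113 and 91.1 CPM in double-knockout libraries. The groups did not overlap, and both were tight, with 1.29-fold and 1.24-fold between the lowest and the highest library. The difference was small and well determined, from 73.4 ± 7.86 to 102 ± 8.13 CPM (log2 fold change 0.47, SE 0.09, 95% interval 0.27 to 0.68, adjusted p = 0.00956), and it was called in all 19 alternatives at 0.41 to 0.58. The antisense gene Gm13561, which had 0 counts in every library, overlaps exonic sequence of Dpp4. Whether the counting used strand is not given in the sources used here.

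Alpi is the intestinal alkaline phosphatase, which removes phosphate from lipopolysaccharide and is tied to fat uptake, and lies on chromosome 1 at 87098002 to 87101606 on the minus strand. The Smad4Vil-KO libraries had 22.2, 25.4, 21.1 and 17.7 CPM and the double-knockout libraries 81.1, 97.5, 30.3, 32.9 and 19.4 CPM. Replicates 1 and 2 were far above the controls, replicates 3 and 4 just above, and replicate 5 within their range. The log2 fold change was 1.27 (SE 0.43, 95% interval 0.34 to 2.21) and did not pass the adjustment (edgeR adjusted p = 0.0724), with means of 21.6 ± 3.18 and 52.2 ± 34.7 CPM. Without double-knockout replicate 5 the adjusted p was 0.0187 at a log2 fold change of 1.5, and among the libraries with few Y-linked counts alone it was 0.0233 at 0.55. Without a filter on low counts it was 0.0448 at 1.26. With a term for Y-linked counts the log2 fold change was 0.55 with an adjusted p = 0.485. The closely related phosphatase gene Akp3 had at most 1 count in any library, and how reads shared by both were counted is not given in the sources used here.

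Mep1a and Mep1b encode the alpha and beta subunits of meprin, a metalloendopeptidase that cuts proteins at the apical surface and in the mucus. Mep1a lies on chromosome 17 at 43474324 to 43502812 on the minus strand. Both genes were the most abundant members per length of exon in both groups. Mep1a had 333, 352, 341 and 364 CPM in Smad4Vil-KO libraries and 139.6, 201, 368, 378 and 288 CPM in double-knockout libraries. The control libraries lay within 1.09-fold of each other, whereas double-knockout replicates 1, 2 and 5 were below all of them and replicates 3 and 4 above. The log2 fold change was -0.34 (SE 0.25, 95% interval -0.88 to 0.20, adjusted p = 0.374), with means of 347 ± 13.6 and 275 ± 104 CPM. Its sign depended on the libraries with high Y-linked counts, and it was 0.11 among the libraries with low ones (adjusted p = 0.382).

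Mep1b lies on chromosome 18 at 21061923 to 21100199 on the plus strand. It had 159.9, 231, 193 and 221 CPM in Smad4Vil-KO libraries and 179, 244, 317, 419 and 229 CPM in double-knockout libraries. Replicates 2, 3 and 4 exceeded every control, and replicates 1 and 5 lay within the control range. The means were 201 ± 32.0 and 278 ± 93.5 CPM, with a log2 fold change of 0.46 (SE 0.22, 95% interval -0.02 to 0.95, adjusted p = 0.180). Mep1b was called higher with limma-voom and quality weights (adjusted p = 0.0408), with a term for Y-linked counts (0.0142, log2 fold change 0.87) and among the libraries with low Y-linked counts (0.00477, log2 fold change 0.88).

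Ace, angiotensin-converting enzyme, takes dipeptides from the carboxyl end of peptides and makes angiotensin II. It lies on chromosome 11 at 105967945 to 105989964 on the plus strand. Its Smad4Vil-KO libraries had 36.5, 22.7, 25.9 and 26.7 CPM and its double-knockout libraries 12.9, 29.6, 8.86, 9.97 and 17.6 CPM. Ace was the member with the lowest fold change, and 4 of 5 double-knockout libraries were below every control while replicate 2 was within their range. The log2 fold change was -0.82 (SE 0.32, 95% interval -1.52 to -0.13), with an edgeR adjusted p = 0.107. Without double-knockout replicate 2 it was -1.18 (adjusted p = 0.0110), and among the libraries with low Y-linked counts -1.57 (adjusted p = 0.00119). The antisense gene Gm11651, which overlaps an exon of Ace, had at most 1 count in any library.

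Mme, neprilysin, an endopeptidase of small peptide hormones that also marks early lymphoid and stromal cells, was near the floor. It lies on chromosome 3 at 63241537 to 63386030 on the plus strand. The Smad4Vil-KO libraries had 6, 4, 8 and 11 counts and the double-knockout libraries 6, 12, 5, 5 and 0 counts. The groups overlapped apart from double-knockout replicate 5, which was below every control. Their means were 0.496 ± 0.271 and 0.396 ± 0.303 CPM, and Mme was left out of the genome-wide test by the filter on low counts. An exact permutation test over all ways to divide 9 libraries into 4 and 5 gave p = 0.619 (two-sided), where the smallest p possible is 0.00794. No difference in Mme was detected.

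**Figure D2:**
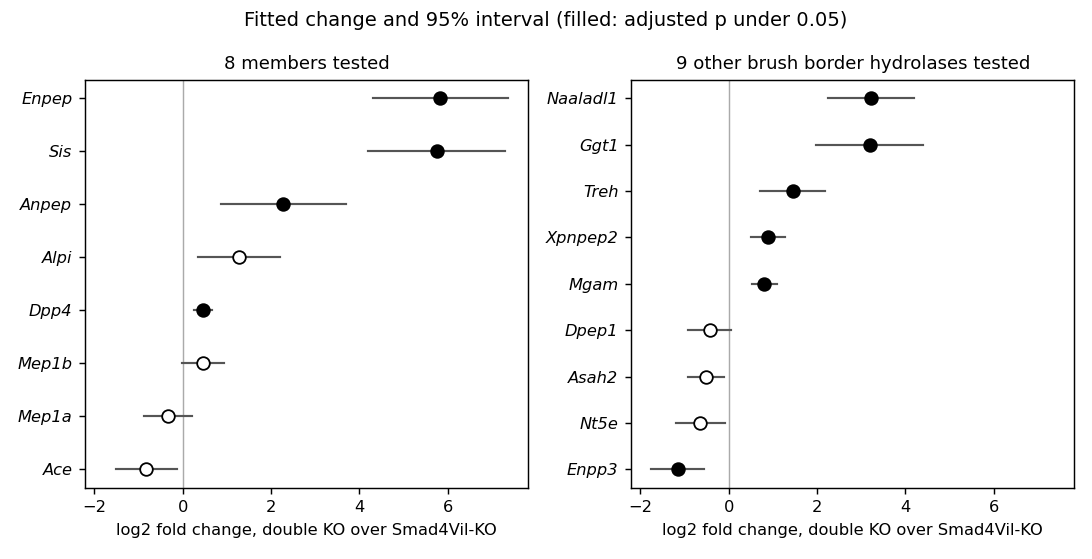
Fitted log2 fold change of double-knockout over Smad4Vil-KO with its 95% interval, for the 8 members tested (left) and the 9 other brush border hydrolases tested (right), with filled points for an edgeR adjusted p under 0.05. Enpep (5.84) and Sis (5.75) stand to the right of every other hydrolase, and Ace (-0.82) and Enpp3 (-1.15) at the lower end of each panel.

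The members did not move together across the double-knockout libraries. Replicate 5 held the lowest level of Sis, Enpep, Anpep, Dpp4 and Alpi, but replicate 1 held the lowest of both meprin genes and replicate 3 the lowest of Ace. The highest level was in replicate 4 for Sis, Dpp4, Mep1a and Mep1b, in replicate 2 for Enpep, Ace and Alpi, and in replicate 1 for Anpep. The lowest and highest double-knockout libraries differed by 1.24-fold for Dpp4, 2.35-fold for Mep1b, 2.71-fold for Mep1a, 3.26-fold for Sis, 3.34-fold for Ace, 5.04-fold for Alpi and 8.89-fold for Enpep. For Sis, Dpp4, Mep1a and Mep1b both double-knockout libraries with low Y-linked counts were above the 3 with high counts, for Ace both were below, and for Enpep, Anpep and Alpi the libraries overlapped. With 2 libraries against 3, this order was not tested.

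**Figure D3:**
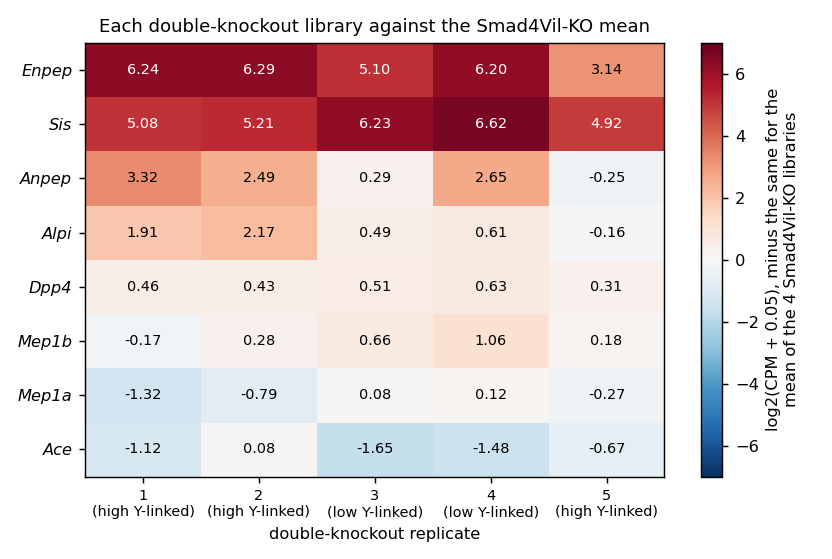
Colour and number give the log2 ratio of the CPM of each double-knockout library to the mean CPM of the 4 Smad4Vil-KO libraries, with 0.05 CPM added to both, for the 8 members tested (rows) and 5 replicates (columns, marked by their Y-linked counts). Sis and Enpep are above the control mean in all 5 replicates, whereas Anpep and Alpi run from 3.32 and 1.91 in replicate 1 to -0.25 and -0.16 in replicate 5.

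Pairs of members were also compared within each library, which removes the scaling between libraries. The ratios use the same counts as the single-gene results above and are not independent of them. The 4 pairs were tested with exact permutation tests, two-sided, and adjusted over the 4. For the 2 aminopeptidases, the log2 ratio of Enpep to Anpep was -1.55, -2.40, -2.57 and -1.66 in Smad4Vil-KO libraries and 1.02, 1.90, 2.92, 1.66 and 1.5 in double-knockout libraries. Anpep was thus the larger count in every control and Enpep in every double-knockout library (difference in mean 3.85, exact permutation p = 0.00794, adjusted 0.0159). For the meprin subunits, the log2 ratio of Mep1a to Mep1b was 1.06, 0.61, 0.82 and 0.72 in Smad4Vil-KO libraries and -0.36, -0.28, 0.21, -0.15 and 0.33 in double-knockout libraries. The ratio was lower in each double-knockout library than in any control (difference -0.85, exact permutation p = 0.0159, adjusted 0.0159), although neither gene was called by itself.

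The disaccharidase and the phosphatase also changed unequally. The log2 ratio of Sis to Alpi was -5.53, -1.77, -3.05 and -4.56 in Smad4Vil-KO libraries and 0.24, 0.10, 2.80, 3.08 and 2.14 in double-knockout libraries. Sis was the smaller count in all controls and the larger in all double-knockout libraries (difference 5.40, exact permutation p = 0.00794, adjusted 0.0159). The log2 ratio of Dpp4 to Ace, which both release dipeptides, was 1.2, 1.51, 1.5 and 1.42 in Smad4Vil-KO libraries and 2.97, 1.73, 3.56, 3.50 and 2.37 in double-knockout libraries. It was larger in each double-knockout library than in any control (difference 1.42, exact permutation p = 0.0159, adjusted 0.0159). Among the libraries with low Y-linked counts alone no ratio could reach 0.05, and the groups differed by 4.34, -0.77, 6.67 and 2.12 in the order given here.

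**Figure D4:**
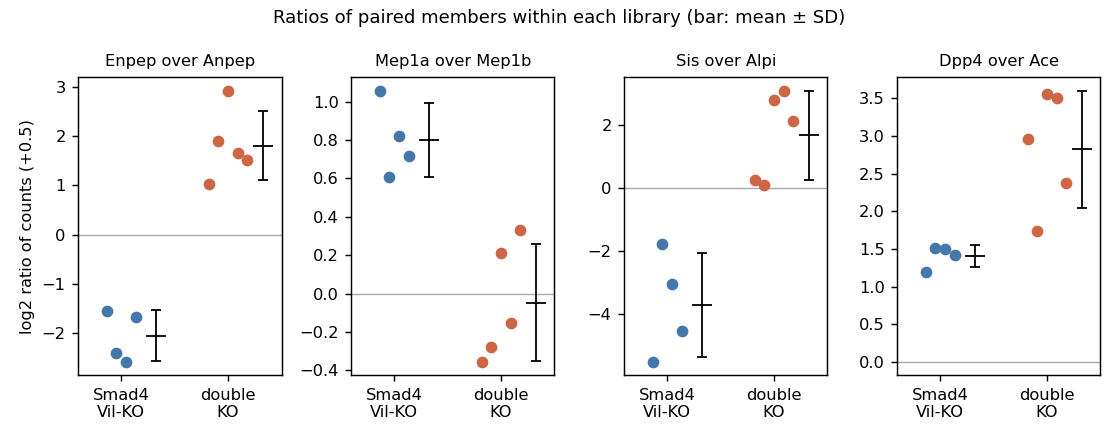
Log2 ratio of the counts (plus 0.5) of 2 members within each library, for 4 pairs, with Smad4Vil-KO in blue (n = 4), double-knockout in orange (n = 5) and bars for the mean ± SD. The groups do not overlap in any panel, and the panels have separate vertical scales.

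Levels between genes were compared as CPM per kilobase of exon. In Smad4Vil-KO IECs the order was Mep1a (101 ± 3.93), Mep1b (76.7 ± 12.2), Dpp4 (11.6 ± 1.24), Alpi (9.23 ± 1.36), Ace (5.29 ± 1.13), Anpep (1.07 ± 0.232), Sis (0.371 ± 0.433), Enpep (0.246 ± 0.132) and Mme (0.0430 ± 0.0235). Of the neighbours in that order, the libraries of Dpp4 and Alpi, of Anpep and Sis, and of Sis and Enpep overlapped, and the others did not. In double-knockout IECs the order became Mep1b (106 ± 35.6), Mep1a (79.6 ± 30.1), Alpi (22.3 ± 14.9), Sis (20.7 ± 11.4), Dpp4 (16.1 ± 1.29), Enpep (13.9 ± 7.99), Anpep (5.19 ± 4.16), Ace (2.98 ± 1.60) and Mme (0.0343 ± 0.0263). The libraries of each of these members overlapped with those of the next, except for Ace and Mme. Sis, which ranked 7 among controls, ranked 4 and overlapped with Alpi and Dpp4. The summed level of the 9 members was 643 to 709 CPM in Smad4Vil-KO libraries and 745, 896, 1087, 1348 and 744 CPM in double-knockout replicates 1 to 5. Mep1a made up 49.8% to 51.7% of that sum in controls and 18.7% to 38.7% in double-knockout libraries, and Sis 0.0697% to 1.05% and 11.4% to 20.6%.

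**Figure D5:**
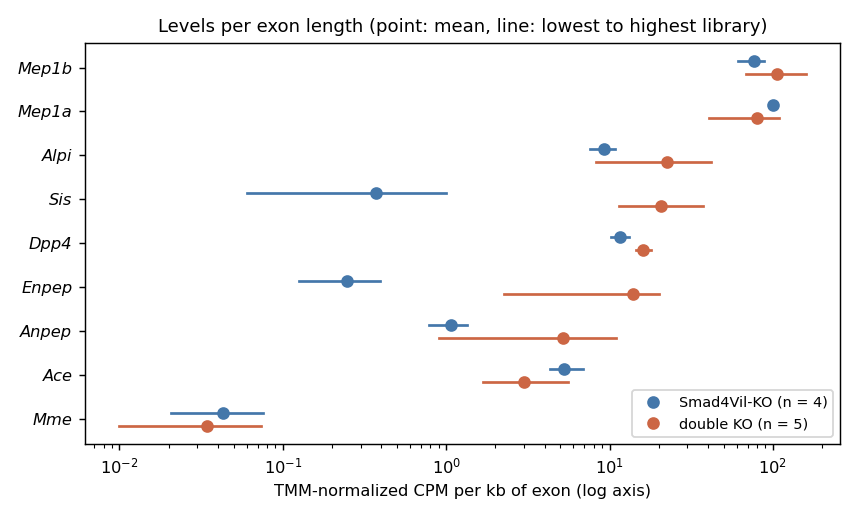
TMM-normalized CPM per kilobase of exon on a log axis, with a point for the mean and a line from the lowest to the highest library, Smad4Vil-KO in blue (n = 4) and double-knockout in orange (n = 5). Sis moves from 0.371 to 20.7 and Enpep from 0.246 to 13.9, and the line of Mme in the double-knockout group ends at the drawn limit because its lowest library had 0 counts.

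Other hydrolases of the brush border were read from a list of 17 genes, of which 9 were tested. Of these, 5 were called higher and 1 lower (5 and 3 at an unadjusted p under 0.05), beside 6.76% and 6.54% of all tested genes, and the median log2 fold change was 0.80. Naaladl1, an intestinal peptidase, went from 12.6 ± 6.0 to 119 ± 63.4 CPM (log2 fold change 3.22, adjusted p = 0.00159). Ggt1, which starts the breakdown of glutathione outside the cell, went from 3.23 ± 1.97 to 29.9 ± 15.8 CPM (3.20, adjusted p = 0.00509). Smaller rises were called for trehalase Treh (1.45, adjusted p = 0.0188) and aminopeptidase P Xpnpep2 (0.89, adjusted p = 0.00870), and the ectonucleotide pyrophosphatase Enpp3 was lower (-1.15, adjusted p = 0.0212).

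Among the disaccharidases, the rise of Sis was accompanied by that of Mgam, its relative maltase-glucoamylase, from 787 ± 99.2 to 1375 ± 193 CPM (log2 fold change 0.80, adjusted p = 0.00347). Lactase (Lct) stayed between 0 and 7 counts per library, and the enteropeptidase gene Tmprss15 and Enpp7 had 0 counts in all 9.

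Genes of the microvillus core and tip were read from a list of 20. Of these, 19 were tested, 3 were called higher and 0 lower (7 and 1 at an unadjusted p under 0.05), beside the 6.76% and 6.54% of all tested genes, and the median log2 fold change was 0.12. Every double-knockout library lay above every control for 6 of the 19 and below for 1, beside 8.34% and 8.87% of all tested genes. The 3 were Calml4 (1.01) and Anks4b (0.44), both of the protocadherin link complex between microvilli, and the adhesion molecule Tmigd1 (0.99). The actin bundler Vil1, whose promoter drives the Cre, averaged 993 ± 59.7 CPM in controls and 1121 ± 78.7 CPM in double-knockout libraries (fitted difference 0.17 on the log2 scale, adjusted p = 0.200).

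For the angiotensin peptides, in which Ace, Enpep, Anpep and Mme act, 11 of 17 listed genes were tested and 3 were called higher, beside 6.76% of all tested genes, namely the members Enpep and Anpep and the renin receptor Atp6ap2 (0.49). None was lower at an edgeR adjusted p under 0.05, beside 6.54% of all tested genes, and at an unadjusted p under 0.05 there were 5 higher and 3 lower. Among 11 aminopeptidases of the family of Anpep and Enpep, 8 were tested and 3 called higher, beside 6.76% of all tested genes, namely the members Anpep and Enpep and also Erap1 (0.47), which trims peptides in the endoplasmic reticulum. Of the family of Dpp4, 5 of 7 listed genes were tested and Dpp4 alone was called. Beside it stand the 6.76% higher and 6.54% lower of all tested genes. At an unadjusted p under 0.05 there were 2 higher and 0 lower, the other being Fap (0.81, edgeR adjusted p = 0.0632). Of the family of neprilysin and the meprins, 5 of 12 listed genes were tested, Mep1a and Mep1b among them. No gene of that list was called in either direction, beside the same shares (1 lower and 0 higher at an unadjusted p under 0.05).

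Transcription factors known for brush border genes were read from a list of 13. Of these, 12 were tested, 1 was called higher and 0 lower by edgeR (2 and 1 at an unadjusted p under 0.05), beside the 6.76% and 6.54% of all tested genes, and the median log2 fold change was 0.05. Cdx2 had a log2 fold change of 0.04 (adjusted p = 0.835) and Hnf4a 0.05 (adjusted p = 0.779). Others that were not called differed more, with -0.32 for Cdx1 (adjusted p = 0.238), 0.35 for Hnf4g (adjusted p = 0.114) and 1.08 for Gata5 (adjusted p = 0.184). Gata4, a factor of the proximal small intestine, was higher (2.20, adjusted p = 0.0144), at 2 to 5 counts in Smad4Vil-KO and 7 to 25 counts in double-knockout libraries.

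Markers of other cells that the EDTA fraction could hold were read beside these results. Of 12 markers of small intestinal enterocytes, none of them a member, 10 were tested and 6 were called higher and 0 lower (8 and 0 at an unadjusted p under 0.05), beside 6.76% and 6.54% of all tested genes, with a median log2 fold change of 2.17. Their summed level was 637 to 747 CPM in Smad4Vil-KO libraries and 1105, 1576, 867, 1206 and 753 CPM in double-knockout replicates 1 to 5. Mttp, which loads lipid onto apolipoprotein B, was at 2.37 to 5.46 CPM in controls and at 115, 123, 91.3, 149.9 and 30.04 CPM in double-knockout libraries, with its lowest level in replicate 5, like Sis and Enpep. The bile acid binding protein Fabp6 went from 4.59 ± 0.120 to 33.04 ± 22.7 CPM. The amino acid transporter gene Slc6a19 averaged 0.375 ± 0.178 CPM in controls and 19.9 ± 26.1 CPM in double-knockout libraries (5.70 on the log2 scale, adjusted p = 0.0215). Its levels in double-knockout replicates 1 to 5 were 32.3, 60.2, 2.58, 3.30 and 0.852 CPM, so replicates 1 and 2 carried most of that mean. The fatty acid binding protein Fabp1 had 0 to 3 counts in controls and 26 to 91 counts in double-knockout libraries (adjusted p = 0.000498). Rbp2, a retinol binding protein, was also called higher (log2 fold change 1.5, adjusted p = 0.0204). The defining apolipoproteins Apoa1 and Apoa4 had 0 counts in every Smad4Vil-KO library. In double-knockout replicates 1 to 5, Apoa1 had 612, 366, 20, 207 and 2 counts and was called higher (edgeR adjusted p = 0.0275), and Apoa4, which was not tested, had 272, 528, 1, 7 and 0 counts. The part of these markers in the rise of Sis, Enpep and Anpep was not tested.

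Of 10 colonocyte markers 0 were called higher and 1 lower (Slc37a2, -1.50), beside 6.76% and 6.54% of all tested genes (2 and 2 at an unadjusted p under 0.05). They summed to 8965 to 11184 CPM in Smad4Vil-KO and to 5549 to 11230 CPM in double-knockout libraries. The lowest sum was that of double-knockout replicate 1, which also had the lowest Mep1a and Mep1b of its group. The part of this in the meprin values was not tested. Markers of T cells summed to 25.0 to 46.8 and 14.7 to 49.9 CPM, of B and plasma cells to 14.2 to 39.9 and 21.3 to 62.3 CPM, of myeloid cells to 17.9 to 95.6 and 26.3 to 60.2 CPM, and of fibroblasts to 25.7 to 52.2 and 37.0 to 76.4 CPM in Smad4Vil-KO and double-knockout libraries. No tested marker on these 4 lists was called in either direction by edgeR (1 B and plasma cell marker and 2 fibroblast markers were higher at an unadjusted p under 0.05). Endothelial markers summed to 8.22 to 9.11 and 6.25 to 10.9 CPM and mural cell markers to 10.1 to 13.4 and 10.4 to 12.1 CPM, with 0 called among the 3 tested (0 at an unadjusted p under 0.05).

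The genes whose profile over the 9 libraries was most like that of each member were found by the root mean square difference of log2 CPM after each gene was centred on its mean. For Sis they were Cyp3a25 (0.74), Abca8b (0.77) and Reg3a (0.90), and for Enpep Trim13 (0.82), Gm13453 (0.83) and Neto1 (0.90). For Anpep they were Ms4a10 (0.48), Abca14 (0.52) and Rgs4 (0.56), and for Alpi Ada (0.22), Ifrd1 (0.27) and Fbxw17 (0.29). For Dpp4 they were Atp6v0a1 (0.08), Atp6ap2 (0.08) and Plin3 (0.08). The difference is not scaled by a gene's own spread, so its size cannot be compared between members. Mep1a was followed by Tmem139 (0.10), Tinag (0.12) and Chd3 (0.12), Mep1b by Fgl2 (0.10), Pde8b (0.15) and Fam117a (0.16), and Ace by Setbp1 (0.21), Nlrp10 (0.23) and Sh3rf2 (0.23). No member was among the nearest 3 of another.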

How the data were processed

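IEC RNA of 9 mice was sequenced, and the labels assign each library its genotype and replicate number. Per the submitters' processing notes, mm10 and HISAT2 2.0 were used, and the counting program, annotation and strand setting are not given in the sources used here. The authors deposited raw counts per gene symbol, not normalized and not pooled, in 46095 rows, of which 27 held symbols turned into dates. Library totals of 12487129 to 17120202 limit the precision of members near the floor of 3 counts. Per the study's methods the controls were littermates, and which mice shared a litter is not given in the sources used here, so p-values measure the spread between these mice.

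Genes were kept by filterByExpr (14593 genes), normalized by TMM and tested with edgeR 4.0.16 (quasi-likelihood, no covariates, R 4.3.3) with Benjamini-Hochberg adjustment over all tested genes. The SE of a log2 fold change was taken as its size divided by the square root of the F statistic. CPM are TMM-normalized. DESeq2 1.42.0, limma-voom with sample quality weights (limma 3.58.1) and further alternatives were run, and the test was tested on simulated data. Gene models and exon lengths are those of GENCODE M21 and promoters those of RefSeq, both on GRCm38, the build also called mm10. The members and gene lists were chosen with earlier results of these data known. The text names all 9 members, Setd2, Smad4 and Vil1, of each list at most 6 called genes with the largest fold changes, defining markers, and the 3 genes most like each member (tested, mean of at least 1 CPM). Transcription factors and enzymes named without a call were chosen after their values were seen. Chi-square comparisons showed no library deposited under 2 names. Some genes are not reported here and were left out of the lists.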

Additional observations from a re-analysis of the deposited data

How the results depend on the processing

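Sis, Enpep and Dpp4 kept their call and direction in every alternative in which they were tested. Anpep kept its direction in all 19 and lost its call in 10 of them. The count of members higher was 3 to 6 against 4. The count lower was 0, but 1 (Ace) with limma-voom and sample quality weights, with a term for Y-linked counts and among the libraries with low Y-linked counts, and 0 to 1 with each library left out in turn. Mep1a turned from -0.34 to 0.10 with that term and to 0.11 among those libraries. There the ratios differed by 4.34 (Enpep to Anpep), -0.77 (Mep1a to Mep1b), 6.67 (Sis to Alpi) and 2.12 (Dpp4 to Ace), at an exact permutation p of 0.0667, the smallest that 4 against 2 libraries allow. The CPM difference of Mme ran from -0.215 to 0.0249 with each library left out in turn, with an exact permutation p of at least 0.304, and its sign turned without Smad4Vil-KO replicate 4 (alternatives chosen after seeing the data). Sis could not be tested with at least 10 counts in every library.

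Replicate numbers did not pair the libraries (correlations of -0.09 to 0.08 between same-numbered libraries), and with the replicate block 5 members were higher and 0 lower, and Alpi passed the threshold (1.32, adjusted p = 0.0198). Over all genes, 986 higher and 955 lower became 787 and 831 with the block. They became 455 and 392 without Smad4Vil-KO replicate 3, 509 and 509 without replicate 1, 599 and 605 without replicate 2, and 620 and 563 without replicate 4 of that group. Without double-knockout replicate 4 they were 654 and 619, under the Y-linked term 653 and 632, and among the libraries with low Y-linked counts 1406 and 1524. limma-voom with quality weights gave 1401 and 1523 and DESeq2 1461 and 1331. The cause of these changes was not tested.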
